A study of Mus musculus with 11 samples.

Results

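The genes described here encode the nuclear subunits of the mitochondrial oxidative phosphorylation machinery. They were chosen by symbol alone: genes named as Nduf subunits (complex I), Sdh (complex II), Uqcr (complex III), Cox4 to Cox8 (complex IV) or Atp5 (complex V), leaving out symbols ending in -ps, of which there were 0. The rule found 84 of the 24411 genes in the tables: 37 in complex I, 4 in complex II, 8 in complex III, 18 in complex IV and 17 in complex V. The rule uses no measured value, but it was set with earlier results of these data known. A symbol is not a proof of role. Ndufa4 is counted with complex I by its name, although its protein is now placed in complex IV, and Cox7a2l, Atp5s and Atp5sl are better known for helping complexes to assemble or associate.

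Oxidative phosphorylation transfers electrons from NADH (complex I) and succinate (complex II) through complex III to oxygen at complex IV. Complexes I, III and IV pump protons across the inner mitochondrial membrane, and complex V, the ATP synthase, lets them flow back to make ATP. All complexes except complex II also hold subunits made from mitochondrial DNA, whose genes are not analysed here. Resting microglia, the resident macrophages of the brain, rely largely on this pathway, and macrophages that respond to inflammatory stimuli lean more on glycolysis.

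The libraries came from myeloid cells sorted from mouse brain and labelled as microglia-like, 9 of them after a competitive transplant of blood-forming cells. The route was a vein (IV), the ventricles of the brain (ICV) or the spinal fluid at lumbar level (ITL). For each route there was 1 library of CD45.2 µ cells and 1 each of CD45.1 µ and CD45.1 TAµ cells, which gives 9 libraries. The other 2 were ICV CD45.2 PBS and CTR µ, a control whose label names no route. CD45.1 and CD45.2 are alleles of the leukocyte surface protein CD45. The labels expand neither TAµ nor PBS, do not say which allele marks the donor or the host, and give neither the mouse strain, disease model, age or time after transplant of each library, nor whether animals were pooled. With 1 library per combination there were no replicates, so the 3 libraries of a population differ in route, and the 3 of a route differ in population. Spreads below are over such libraries.

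Library totals ran from 6090589 to 21282823 counts, and 11295 to 39645 of these fell in the 84 genes. ICV CD45.1 µ and IV CD45.2 µ stood apart from the rest: they had the fewest genes with a count, 11456 and 10477, against 12192 to 15492 elsewhere. Rn45s, a ribosomal RNA precursor, took 6.98% to 25.1% of the counts. The sum of 8 microglial marker genes ran from 10331 CPM (counts scaled to a library total of 1000000) in ICV CD45.2 PBS to 30616 CPM in CTR µ. The sum does not show that each of the 8 was expressed in every library. Marker sums of other cells were uneven: 5 neutrophil genes made up 1.00 CPM in IV CD45.2 µ and 12492 CPM in IV CD45.1 µ. The 5 markers listed for graft-derived macrophages (Ms4a7, Apoe, Axl, Clec12a and Ahr, of which Apoe and Axl are also known from activated microglia) made up 584 CPM in CTR µ, 4578 and 7093 CPM in CD45.2 µ of ITL and IV, and 18392 to 28619 CPM in the other 8 libraries. The 4 astrocyte genes ran from 41.5 CPM in ICV CD45.2 PBS to 542 CPM in IV CD45.2 µ. The 2 choroid plexus genes reached 1366 CPM in ICV CD45.1 µ against 3.93 to 149 CPM elsewhere, and 4 neuronal genes stayed at 16.9 CPM or below. Whether such cells contribute to the levels of subunit genes was not tested. In these bulk libraries fewer cells of a type and less RNA per cell cannot be told apart.

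The summed level of the subunit genes varied little. It was lowest in ITL CD45.2 µ at 1855 CPM (95% exact interval 1821 to 1889, counting error only) and highest in ITL CD45.1 TAµ at 2713 CPM (2680 to 2747), a ratio of 1.46. Among CD45.1 µ libraries the sum was 2225 CPM for IV, 2074 for ICV and 2512 for ITL. Among CD45.1 TAµ libraries it was 1877, 2147 and 2713 CPM, and among CD45.2 µ libraries 1979, 1863 and 1855 CPM, in the same order. The means were 2270 ± 223 CPM for CD45.1 µ, 2246 ± 427 CPM for CD45.1 TAµ and 1899 ± 69.7 CPM for CD45.2 µ (SD, n = 3 routes). By route they were 2027 ± 179 CPM for IV, 2028 ± 148 CPM for ICV and 2360 ± 449 CPM for ITL (SD, n = 3 populations). All 3 CD45.2 µ libraries lay below the 3 CD45.1 µ libraries, while the CD45.1 TAµ libraries overlapped with both, and the routes overlapped. With Rn45s left out of the totals CD45.1 µ and CD45.2 µ overlapped too, with 2230 CPM in ICV CD45.1 µ and 2383 CPM in ICV CD45.2 µ. On those totals the ratio of highest to lowest was 1.72, and IV CD45.1 TAµ was the lowest. CTR µ had 1906 CPM and ICV CD45.2 PBS 2019 CPM of the full total.

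**Figure D1:**
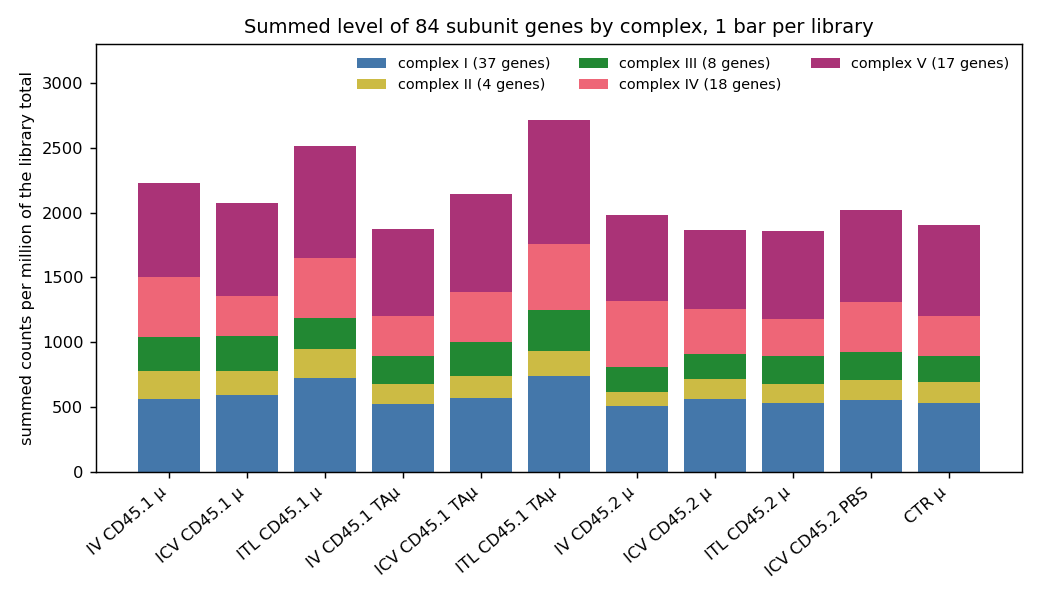
Summed level of the 84 subunit genes in each of the 11 libraries, in CPM of the library total, with the part of each complex in colour. Sums lie between 1855 and 2713 CPM, and complex V is the largest part of every bar.

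The make-up of that sum was steadier than single genes were. Complex V genes gave 32.3% to 36.9% of it, complex I 25.4% to 30.1%, complex III 9.47% to 13.3% and complex II 5.64% to 9.68%. Complex IV ranged most widely in points of share, from 14.6% in ICV CD45.1 µ to 25.6% in IV CD45.2 µ. IV CD45.2 µ thus had the highest share of complex IV and the lowest share of complex II. The 87 cytosolic ribosomal protein genes also peaked in ITL CD45.1 TAµ, at 17657 CPM, and were lowest in ITL CD45.2 µ, at 9869 CPM. The 77 mitochondrial ribosomal protein genes kept between 688 and 928 CPM.

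What did vary was which subunits a library contained. A level of 5 CPM or more at the median of the 11 libraries was reached by 71 members. In 8 libraries none of these 71 fell below 1 CPM. In IV CD45.2 µ, 9 of them did: Atp5g1, Ndufa5, Ndufa7, Ndufb3, Ndufb5, Ndufb7, Ndufc1, Ndufs6 and Uqcr11. In ICV CD45.1 µ, 5 did: Atp5g3, Atp5j2, Ndufa8, Ndufs6 and Ndufs7. In IV CD45.1 µ only Ndufb9 did, at 0.469 CPM. These 15 gaps concern 14 genes, of which Ndufs6 alone was missing from more than 1 library. Most are small accessory subunits of complex I, which surround the catalytic core and stabilise it. Complex I also supplies 32 of the 71 members, and gaps were more frequent at low levels, as given below. Other genes of like level were below 1 CPM at near shares, and the difference was not tested. In IV CD45.2 µ 12.7% of the 71 members and 11.3% of 8589 other genes with a median of 5 CPM or more were below 1 CPM, in ICV CD45.1 µ 7.04% and 5.64%, and in IV CD45.1 µ 1.41% and 2.17%.

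Values of 3 genes show the size of such gaps. Ndufb5, an accessory subunit in the membrane arm of complex I, was at 0 in IV CD45.2 µ, where 3 counts would be 0.232 CPM, and between 17.8 and 39.7 CPM in the other 10 libraries. Ndufs7, which carries the last iron-sulphur cluster before ubiquinone, was at 0.0898 CPM in ICV CD45.1 µ and between 18.7 and 31.0 CPM elsewhere. Atp5j2, subunit f of the ATP synthase, was at 0.180 CPM in ICV CD45.1 µ and between 8.87 and 33.5 CPM elsewhere. Each of these genes was nearly absent from 1 library, and over the other 10 Atp5j2 varied more than the other two. Some members were high in the same libraries. In IV CD45.2 µ, 22 of the 71 members were 2-fold or more below their own median and 8 were 2-fold or more above it, together 42.3%, against 36.2% of the other genes. Among the 8 were Uqcr10 at 35.6 CPM, Cox7c at 44.1 CPM, Atp5g2 at 58.6 CPM and Cox8a at 75.97 CPM. In ICV CD45.1 µ, 14 were low and 4 high, together 25.4% against 26.1% of the other genes, the high ones including Ndufv2 at 47.9 CPM and Uqcrq at 40.5 CPM. In IV CD45.1 TAµ, ICV CD45.2 PBS and ICV CD45.2 µ no member was 2-fold from its median, against 1.65% to 4.17% of the other genes. The SD over members of the log2 distance from the median was 2.15 in IV CD45.2 µ, 1.58 in ICV CD45.1 µ and 0.228 to 0.871 in the other 9. Over the other genes it was 2.05, 1.43 and 0.36 to 0.94, so the other genes were spread nearly as widely in these 2 libraries.

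**Figure D2:**
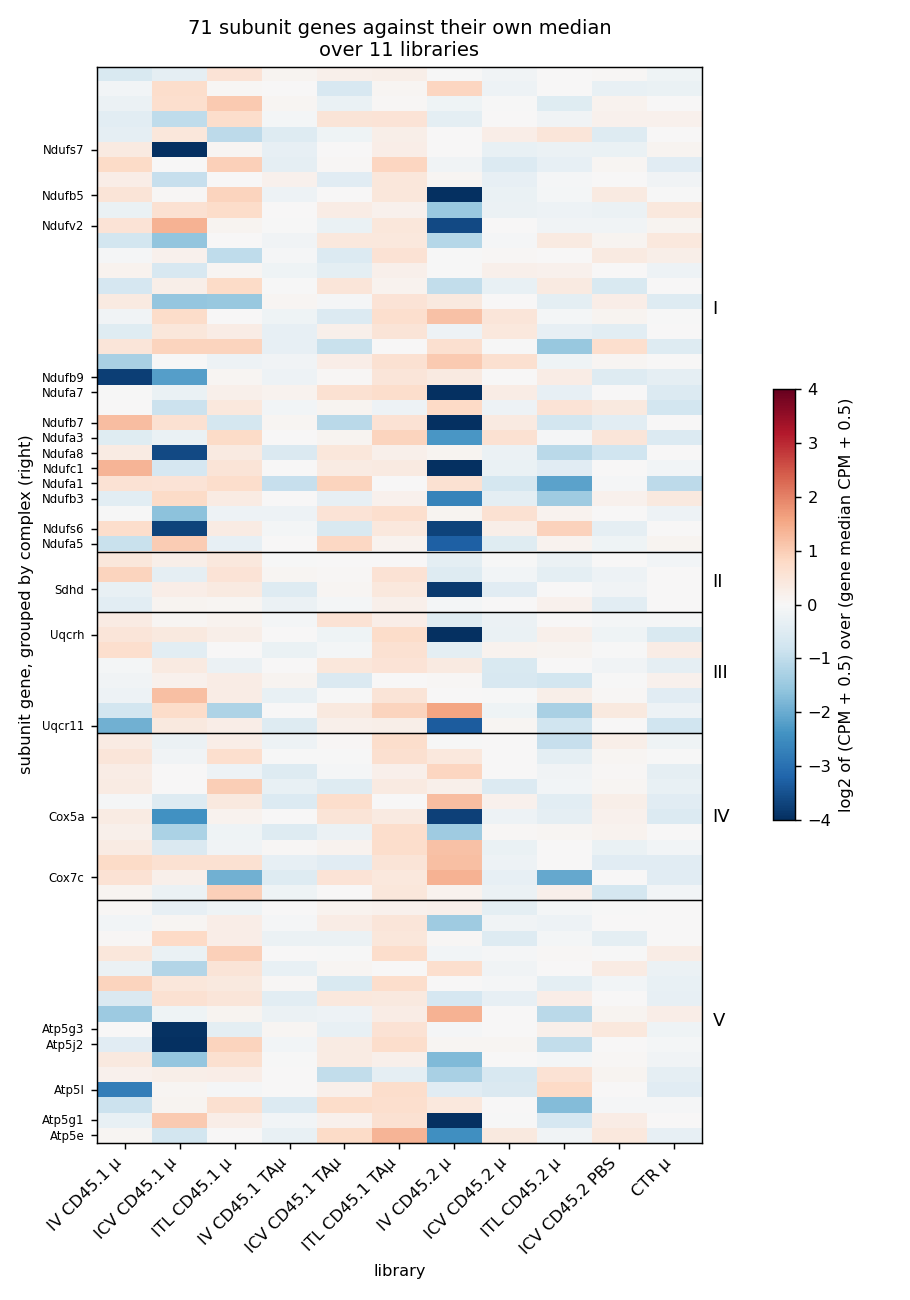
Each row is 1 of the 71 subunit genes with a median of 5 CPM or more, grouped by complex (right), and each column 1 library; colour gives the log2 of CPM plus 0.5 over the gene's own median plus 0.5, from blue (low) to red (high), and genes that reach 2 or more in either direction in at least 1 library are named. Dark blue cells cluster in the columns of ICV CD45.1 µ and IV CD45.2 µ, while ICV CD45.2 µ, IV CD45.1 TAµ and ICV CD45.2 PBS are nearly uniform.

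The spread followed the level. In each library the median log2 CPM of the 71 members was first subtracted, so the spread is around the members' common level. Split into 3 classes by level, the members had a median SD of this difference over the 11 libraries that fell as levels rose. In the lowest class (5.81 to 16.1 CPM) it was 0.995, in the middle class (16.2 to 24.2 CPM) 0.607, and in the highest (25.0 to 191 CPM) 0.375. Of the 14 genes with a gap, 10 were in the lowest class, 4 in the middle and 0 in the highest. By this measure the 4 steadiest members were Sdhc (SD 0.213), Atp5a1 (0.226), Cox7a2l (0.246) and Atp5f1 (0.258). The 4 most variable were Ndufs6 (2.29), Ndufb5 (2.24), Ndufb7 (2.03) and Ndufs7 (1.99). Without ICV CD45.1 µ and IV CD45.2 µ the SD of Ndufb5 was 0.271 and that of Ndufs7 0.204, close to the steadiest members, and Ndufs6 and Ndufb7 kept 0.482 and 0.776.

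In complex I the catalytic subunits Ndufv1 and Ndufs1 were present in every library. Ndufv1, which binds NADH, was at 11.4 CPM at the lowest, 21.8 at the median and 29.9 at the highest. Ndufs1, an iron-sulphur subunit and the largest of complex I, had 24.8, 34.9 and 72.0 CPM, the last in ITL CD45.1 µ. Of the 37 complex I genes, 32 had a median of 5 CPM or more, and Ndufb2, Ndufb4 and Ndufb6 lay at 3.85 to 4.66 CPM. Ndufb4 was uneven, with 14.8 CPM in ITL CD45.1 µ, 11.7 in ICV CD45.1 µ and 0.0773 in IV CD45.2 µ.

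Ndufs5, an accessory subunit on the intermembrane face of complex I, was listed at 0 in all 11 libraries. A count of 0 allows up to 0.141 CPM in the deepest library and 0.493 CPM in the shallowest. BC002163, a processed pseudogene in GENCODE, matches the Ndufs5 transcript at 99.4% identity over 319 bases and is in the tables. It had 289 counts in 10 of the 11 libraries: 7.99 CPM in ICV CD45.1 µ, 5.30 in ITL CD45.1 µ, 4.99 in IV CD45.1 µ, 2.31 in ITL CD45.1 TAµ, at most 0.946 in 6 more and 0 in IV CD45.2 µ. The copy is thus counted where the gene is not. How the counting treated reads that match both is not given in the sources used here, so the 0 does not show that Ndufs5 was silent. Another 17 members have a pseudogene copy of at least 95% identity over at least 100 bases, such as Atp5l with 9 copies and Ndufb4, Atp5h and Uqcrb with 2, 4 and 3. None of those copies has a row of its own under its GENCODE name, and levels of these members are uncertain to the extent that reads were shared.

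Complex II, the only complex made wholly from nuclear genes and also an enzyme of the citric acid cycle, had all 4 genes in all 11 libraries. Sdha, the flavoprotein, was at 65.5 CPM at the lowest, 86.8 at the median and 118 at the highest. Sdhb, the iron-sulphur subunit, had 21.9, 31.6 and 59.1 CPM. Sdhc, a membrane anchor, was the steadiest of all 71 around the members' median, and ran from 17.8 to 27.5 CPM. Sdhd, the other anchor, ranged from 17.5 to 34.3 CPM in 10 libraries and was at 1.31 CPM in IV CD45.2 µ. Sdhc, with which it forms the anchor, had 22.8 CPM in that library.

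All 8 complex III genes had counts in every library. Uqcrc1, a core protein, was at 48.3 CPM at the lowest, 67.2 at the median and 101 at the highest. Uqcrfs1, the Rieske iron-sulphur protein, had 19.4, 29.7 and 43.8 CPM. Uqcrh, the hinge protein for cytochrome c1, was at 1.08 CPM in IV CD45.2 µ and between 22.0 and 57.0 CPM elsewhere. Uqcr11, a small accessory subunit, was at 2.46, 7.23 and 0.618 CPM in the 3 IV libraries and at 5.91 to 14.3 CPM in the other 8.

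Several complex IV subunits have alternative genes used in different tissues, and the widely expressed gene dominated in each pair. Cox4i1 ran from 35.3 to 109 CPM, and Cox4i2, an isoform known from lung and low oxygen, was at 0 in 7 libraries and at most 0.210 CPM in 3. The exception was IV CD45.1 µ, where Cox4i2 reached 6.04 CPM, or 6.64% of the pair. Cox6a1 ran from 30.7 to 79.6 CPM and its heart and muscle partner Cox6a2 stayed at or below 0.946 CPM. Cox6b1 ran from 13.2 to 42.7 CPM. Its testis partner Cox6b2 had counts in 7 libraries, reached 3.45 CPM in ITL CD45.2 µ, and made up at most 17.9% of the pair, in ICV CD45.2 PBS. Cox7a2 and Cox7a2l had medians of 19.1 and 66.4 CPM, and the muscle form Cox7a1 had 1 count in all. Cox8a ran from 21.8 to 75.97 CPM, and Cox8b, Cox8c and Cox7b2 had 0 counts in all 11 libraries. Ndufa4l2, a partner of Ndufa4 that is induced by low oxygen, was at 0 in 6 libraries and highest in ITL CD45.2 µ at 2.96 CPM, against 14.6 CPM for Ndufa4.

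**Figure D3:**
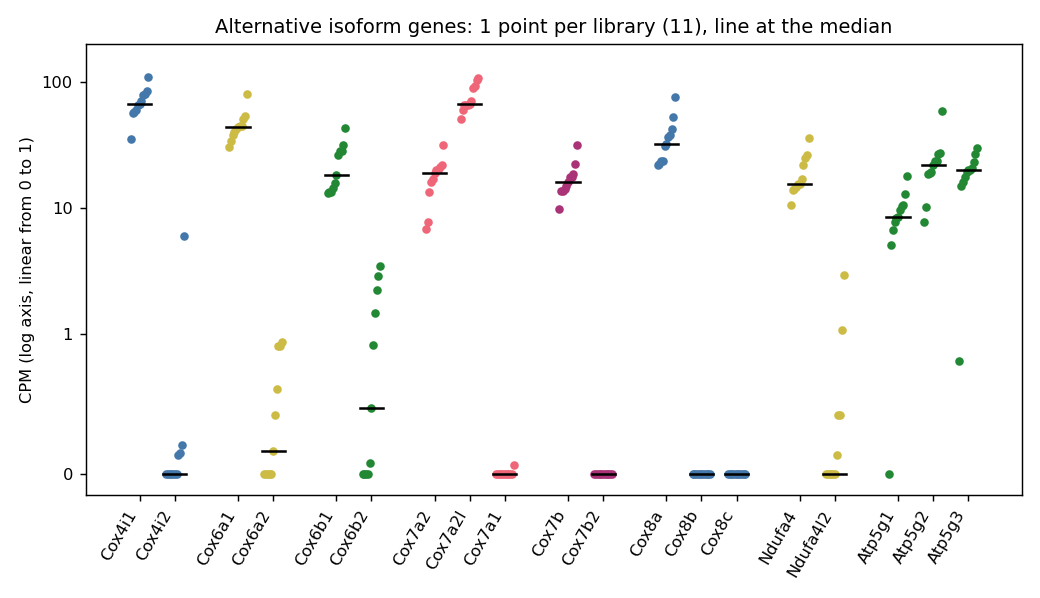
Levels of alternative isoform genes, in CPM on a log axis that is linear from 0 to 1; each point is 1 of the 11 libraries and the line their median. Cox4i1, Cox6a1, Cox6b1, Cox7b and Cox8a lie at 9.74 CPM or more in every library and their tissue-restricted partners at a median of 0.470 CPM or less, with Cox4i2 up to 6.04 and Cox6b2 up to 3.45 CPM, while all 3 genes of ATP synthase subunit c are expressed.

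Complex V held the 2 members with the highest median CPM, Atp5a1 and Atp5b. Per kilobase of exon, the scale on which genes of different length can be compared, the catalytic beta subunit Atp5b and its partner alpha, Atp5a1, had median levels of 76.7 and 65.8 CPM per kb, beside 88.0 for Cox4i1 and 76.9 for Cox6a1. The gamma subunit Atp5c1, which turns within the ring of alpha and beta, had 56.2 CPM per kb, and delta (Atp5d) and epsilon (Atp5e) had 25.3 and 18.4. In CPM, Atp5a1 was the steadiest of these, from 146 to 222. Atp5b ran from 129 to 205 CPM in 10 libraries and stood at 54.7 CPM in IV CD45.2 µ. Subunit c, which forms the rotating ring, is encoded by Atp5g1, Atp5g2 and Atp5g3, whose mature proteins are the same. Their shares of the 3-gene sum had medians of 17.3%, 42.5% and 39.6%. In IV CD45.2 µ they were 0%, 75.4% and 24.6%, and in ICV CD45.1 µ 46.9%, 50.9% and 2.12%, the libraries in which Atp5g1 and Atp5g3 respectively were missing.

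The populations were compared over the 9 libraries with route as a block, in a model of route and population fitted to all 13339 genes that passed a filter on low counts (edgeR quasi-likelihood test, Benjamini-Hochberg adjusted p under 0.05). The filter kept 76 members. The 8 it removed were Ndufs5, Ndufa4l2, Cox4i2, Cox6a2, Cox7a1, Cox7b2, Cox8b and Cox8c. In CD45.1 TAµ set against CD45.1 µ, 0 of 76 members passed, where 0.075% of all genes did. The median log2 fold change of the members was 0.18, with 47 above 0, against 0.06 over all genes. Within the routes it was -0.22 for IV, 0.53 for ICV and 0.32 for ITL, so the routes differed in sign, and it ran from -0.03 without ICV CD45.1 µ to 0.38 without IV CD45.1 µ. By complex the medians ran from -0.05 for complex II to 0.27 for complex V. An unadjusted p under 0.05 was reached by 1 member (1.32%, against 5.36% of all genes), and by 2 with DESeq2 and 1 with limma-voom. Here and in the other comparisons, the members named are those with the smallest p in a direction among members that had this direction in all 3 blocks. By edgeR the 1 member was Ndufb9, an accessory subunit of complex I. Its levels were 11.01, 13.1 and 18.0 CPM in the CD45.1 TAµ libraries of IV, ICV and ITL and 0.469, 2.33 and 13.3 CPM in the CD45.1 µ libraries, so the groups overlapped. The fitted log2 difference was 1.75 ± 0.80 (SE; edgeR adjusted p = 0.874). Among higher members with a count in both groups Ndufa9 came next, at 15.7, 23.6 and 23.4 CPM against 10.3, 5.48 and 17.4 CPM. The smallest p of a lower member was that of Ndufa13, at 11.5, 7.52 and 14.4 CPM against 20.2, 27.4 and 27.4 CPM, 2 groups that did not overlap. Its log2 difference was -1.06 ± 0.58 (edgeR adjusted p = 0.874), followed by Cox6c at -0.49 and Atp5sl at -0.51. None of them passed. After the scaling of the fit (TMM factors), 3.95% of members and 14.1% of all genes had groups without overlap.

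Cox6b2 was the member with the largest fitted value in this comparison, and that value has no exact size. It was at 0 in all 3 CD45.1 µ libraries and at 2.23, 0.920 and 1.47 CPM in CD45.1 TAµ. Against a floor of 3 counts in each CD45.1 µ library its mean was at least 6.42-fold higher, with an edgeR adjusted p of 0.874. Setting it at this bound left the members' median at 0.18.

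In CD45.2 µ set against CD45.1 µ, again 0 of 76 members passed, with 0.03% of all genes called. The members' median log2 fold change was -0.17, with 44 below 0, against -0.01 over all genes. It was -0.21 within IV, 0.15 within ICV and -0.42 within ITL, and it ran from -0.45 without ICV CD45.1 µ to -0.003 without IV CD45.1 µ. Complex II had the lowest median, -0.61 over its 4 genes, and complex I lay at 0.003. An unadjusted p under 0.05 was reached by 3 members (3.95%, against 8.79% of all genes), by 2 with DESeq2 and by 0 with limma-voom. Ndufv2, a partner of Ndufv1 in the NADH-binding module, was at 1.00, 17.9 and 16.3 CPM in CD45.2 µ of IV, ICV and ITL and at 26.4, 47.9 and 19.5 CPM in CD45.1 µ (log2 difference -1.46 ± 0.61, edgeR adjusted p = 0.531). These groups did not overlap on library totals. With the TMM factors of the fit (0.9156 for ICV CD45.2 µ, 1.035 for ITL CD45.1 µ) they overlap. On that scale 11.8% of members and 10.1% of all genes had groups without overlap. Ndufb5 had -1.37 ± 0.64 and Uqcrh -1.14 ± 0.57. All 3 had their lowest value in IV CD45.2 µ, at 1.08 CPM or below. Among higher members with 1 direction in all 3 routes the smallest p was that of Ndufb9, at 16.5, 12.7 and 15.6 CPM against 0.469, 2.33 and 13.3 CPM, followed by Cox5b and Ndufs8. The first differed by 1.86 ± 0.79 on the log2 scale (edgeR adjusted p = 0.534). The low values lay in the CD45.1 µ libraries of IV and ICV. All 5 graft-derived macrophage markers were below 0 in this comparison, with a median of -0.88 and 0 called, and their part in the members' values was not tested.

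For CD45.1 TAµ against CD45.2 µ, 0.345% of all genes were called and 0 of 76 members. Among them 60 were above 0 and the median was 0.31, against 0.10 over all genes. It was above 0 within each route, at 0.10 for IV, 0.20 for ICV and 0.73 for ITL, where all genes had 0.36, -0.03 and 0.03. The members' median ran from 0.13 without ITL CD45.2 µ to 0.56 without ICV CD45.2 µ, and was 0.49 without IV CD45.1 TAµ. All genes had 0.13, 0.18 and 0.05 in these 3 fits, so without ITL CD45.2 µ the members did not stand above all genes. Fitted values were above 0 for 26 of 35 complex I genes, 3 of 4 in complex II, 8 of 8 in complex III, 8 of 12 in complex IV and 15 of 17 in complex V, together 78.9% against 56.9% of all genes. The shift was not particular to the members. The cytosolic ribosomal protein genes had 74 of 81 above 0, with a median of 0.27, and the mitochondrial ones 49 of 77, with 0.31. Some cell-type markers also changed in this comparison. Of 8 microglial markers 2 fell, with a median of -0.51, and 1 of 4 border macrophage markers rose and 1 of 4 astrocyte markers fell. All 5 graft-derived macrophage markers were above 0, with a median of 1.14, 5 unadjusted p under 0.05 and 0 called. The part of such cells in the members' values was not tested. The test called no member, and an unadjusted p under 0.05 was reached by 1 (1.32%, against 6.75% of all genes), and by 1 each with DESeq2 and limma-voom. By edgeR it was Atp5b, at 143, 180 and 205 CPM in CD45.1 TAµ of IV, ICV and ITL and at 54.7, 135 and 129 CPM in CD45.2 µ. On library totals each CD45.1 TAµ library was higher than all 3 of CD45.2 µ. With the TMM factors of the fit (1.059 for IV CD45.1 TAµ, 0.9156 for ICV CD45.2 µ) these 2 libraries change order and the groups overlap. On that scale 6.58% of members and 11.9% of all genes had groups without overlap. The fitted log2 difference of Atp5b was 0.86 ± 0.28 (edgeR adjusted p = 0.381). Sdhd differed by 1.05 ± 0.55 and Uqcrc1 by 0.60 ± 0.32 (edgeR adjusted p = 0.789 and 0.796). Of the lower members only Ndufs8, an iron-sulphur subunit of complex I, had 1 direction in all 3 routes, at -0.30 ± 0.47. For scale, Sall1, a transcription factor of resident microglia, was lower in CD45.1 TAµ by a fitted log2 difference of -6.27 (edgeR adjusted p = 3.6e-06).

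**Figure D4:**
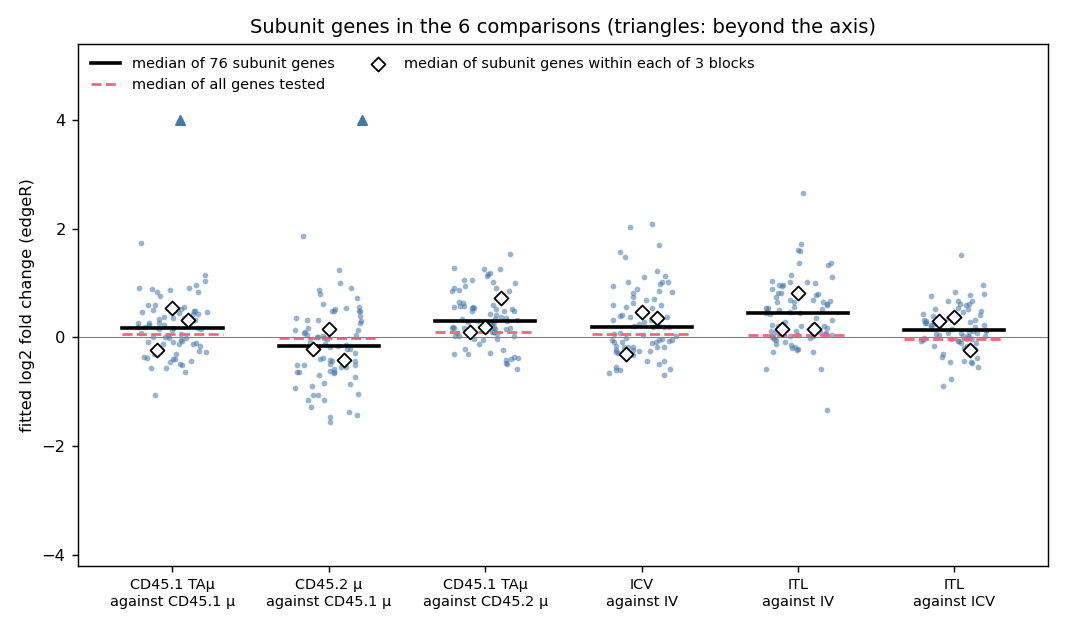
Fitted log2 fold changes of the 76 tested subunit genes in the 6 comparisons; each blue point is a gene, triangles are 2 values of Cox6b2 beyond the axis, black lines the members' median, dashed lines the median of all 13339 genes and diamonds the members' median within each block. The members' medians lie between -0.17 and 0.45, and 0 genes passed the adjusted threshold in each comparison.

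The routes were compared in the same fit, with population as the block. For ICV against IV, 0 of 76 members passed and 0% of all genes. The median of the members was 0.19, with 44 above 0, against 0.06 over all genes. It was -0.31 within CD45.1 µ, 0.47 within CD45.1 TAµ and 0.35 within CD45.2 µ. It ran from 0.09 without IV CD45.1 TAµ to 0.36 without ICV CD45.1 µ, and was 0.48 without ICV CD45.1 µ and IV CD45.2 µ. Without IV CD45.1 TAµ all genes had 0.11. An unadjusted p under 0.05 was reached by 4 members (5.26%, against 9.22% of all genes), by 4 with DESeq2 and by 1 with limma-voom. Uqcr11 was at 11.4, 14.3 and 12.3 CPM in the ICV libraries of CD45.2 µ, CD45.1 µ and CD45.1 TAµ and at 0.618, 2.46 and 7.23 CPM in the IV libraries, with no overlap. Its log2 difference was 2.10 ± 0.78 (edgeR adjusted p = 0.466). Atp5o, the stalk subunit that links the catalytic head of the ATP synthase to its membrane part, was at 19.3, 37.4 and 32.7 CPM against 14.8, 16.2 and 17.9 CPM, again with no overlap. Its log2 difference was 0.95 ± 0.42 (edgeR adjusted p = 0.530), and Atp5b and Sdhd had 0.70 ± 0.28 and 1.14 ± 0.53. Ndufv1 was the only lower member with 1 direction in all 3 populations, at -0.58 ± 0.47. After the scaling of the fit, groups did not overlap for 11.8% of members and 9.66% of all genes.

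For ITL against IV, 0.217% of all genes were called and 0 of 76 members. The members' median was 0.45, against 0.05 over all genes, and 61 members were above 0. It was above 0 within each population, at 0.15 for CD45.1 µ, 0.82 for CD45.1 TAµ and 0.16 for CD45.2 µ. It ran from 0.28 without IV CD45.1 TAµ to 0.70 without IV CD45.1 µ. The cytosolic ribosomal protein genes had 76 of 81 above 0 in the same comparison, with a median of 0.36, and the mitochondrial ribosomal protein genes 58 of 77, with 0.44. An unadjusted p under 0.05 was reached by 4 members (5.26%, against 5.35% of all genes), by 7 with DESeq2 and by 2 with limma-voom. Atp5b was at 129, 175 and 205 CPM in the ITL libraries of CD45.2 µ, CD45.1 µ and CD45.1 TAµ and at 54.7, 137 and 143 CPM in the IV libraries, with an overlap (log2 difference 0.70 ± 0.28, edgeR adjusted p = 0.816). Sdhd was at 25.3, 32.8 and 34.3 CPM against 1.31, 20.4 and 17.5 CPM, with none (1.32 ± 0.54, edgeR adjusted p = 0.820). Ndufb4 was at 5.91, 14.8 and 9.57 CPM against 0.0773, 0.469 and 4.46 CPM (2.66 ± 1.14). Atp5o differed by nearly the same amount in each population, with log2 differences of 0.98, 1.02 and 0.99, and did not pass (1.00 ± 0.44, edgeR adjusted p = 0.877). No member was lower in all 3 populations. After the scaling of the fit, groups did not overlap for 10.5% of members and 12.2% of all genes.

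For ITL against ICV, 0 of 76 members and 0% of all genes passed. The members' median was 0.14, against -0.02 over all genes, with 0.31 and 0.37 within CD45.1 µ and CD45.1 TAµ, and -0.23 within CD45.2 µ. It ran from -0.004 without ICV CD45.1 µ to 0.40 without ICV CD45.2 µ. There were 0 members with an unadjusted p under 0.05 by edgeR, DESeq2 and limma-voom, against 3.79% of all genes by edgeR. Cox6c, a small nuclear subunit of complex IV, came closest, at 32.2, 70.2 and 44.8 CPM against 23.7, 34.9 and 24.2 CPM (0.76 ± 0.39, edgeR adjusted p = 0.998). Ndufb8 and Cox7b followed at 0.67 each. Cox7c, at -0.90 ± 0.75, and Uqcr11, at -0.37 ± 0.71, were the lower members with 1 direction in all 3 populations. Across the 6 comparisons, which share libraries, the SE of a member's log2 difference had medians of 0.55 to 0.58, so differences of that size could not be told from the spread between libraries.

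Genes that work with the chain gave no calls either. In every comparison 0 passed of 14 other respiratory chain genes (such as Cyc1 and Cycs), 48 assembly factors, 18 citric acid cycle genes, 17 regulators of mitochondrial biogenesis, 19 carriers and import genes, 18 glycolytic genes, 81 cytosolic and 77 mitochondrial ribosomal protein genes. The assembly factors had medians of -0.45 in CD45.2 µ set against CD45.1 µ and 0.51 for CD45.1 TAµ against CD45.2 µ. The glycolytic genes had medians from -0.13 for ICV against IV to 0.31 for ITL against ICV. The sum of 19 glycolytic genes ran from 1588 to 2375 CPM.

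CTR µ, the single control library, was set against the 9 libraries with a route and population, with no test. Of the 79 members with enough counts (10 in at least 1 library, 15 in all), 78 lay within the range of the 9 and 1 below it. The share outside was 1.27%, against 12% of all 14928 such genes. The 1 was Uqcrq, a ubiquinone-binding subunit of complex III, at 12.5 CPM against 13.8 to 40.5 CPM. The range is wide where libraries have gaps. Without ICV CD45.1 µ and IV CD45.2 µ, 10 members lay outside the range of the other 7, 9 of them below and Ndufb3 above, which is 12.7% against 20.3% of all genes. Those below included Uqcrh, at 22.0 CPM against 27.8 to 57.0, Ndufv3, at 7.27 against 10.6 to 18.1, and Cox5a, at 19.1 against 21.5 to 40.1. The median log2 difference of CTR µ from the mean of the 9 was -0.06 over the members and 0.02 over all genes. The former was 0.07 with TMM factors. Against single libraries it ran from -0.54 for ITL CD45.1 TAµ to 0.18 for IV CD45.2 µ.

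**Figure D5:**
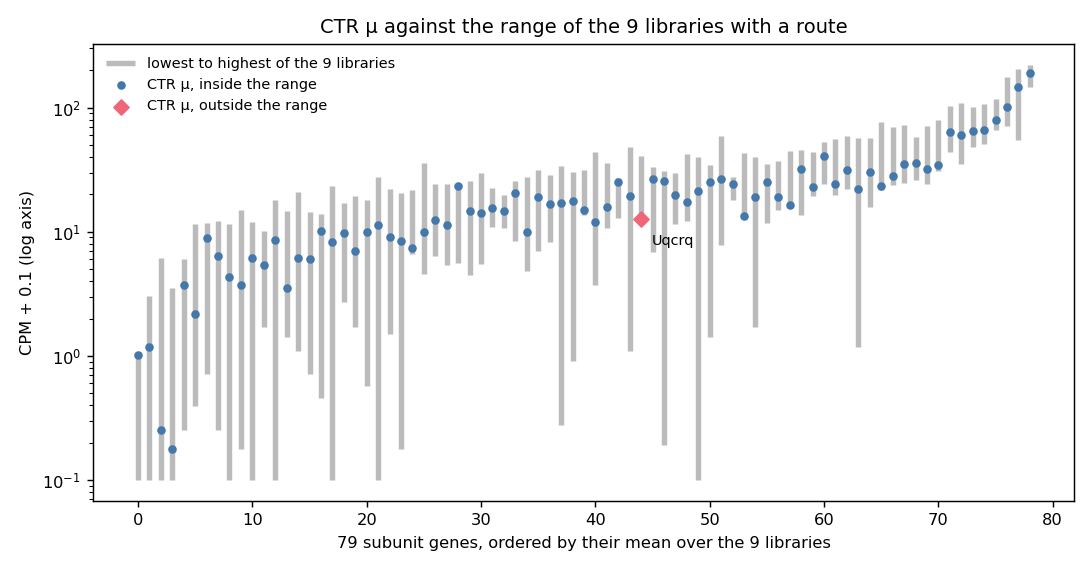
Level of 79 subunit genes in CTR µ (points) and the lowest to highest level over the 9 libraries (grey bars), in CPM plus 0.1 on a log axis, ordered by the mean of the 9. CTR µ lies within the bar for 78 genes, and Uqcrq (red diamond) lies below it at 12.5 CPM.

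ICV CD45.2 PBS was compared with ICV CD45.2 µ, the libraries of 1 route and 1 allele, again without a test. Of 75 members with 100 counts or more over both libraries, 3 differed by 2-fold or more, which compares with 9.6% of 10823 genes. All 3 are accessory subunits of complex I in the B series. Ndufb6 had 1.12 CPM in PBS and 6.86 CPM in the µ library, a ratio of 0.164 (95% exact interval 0.0994 to 0.257, counting error only). Ndufb4 had 2.75 and 6.01 CPM, a ratio of 0.458, and Ndufb2 5.35 and 2.35 CPM, a ratio of 2.28. These 3 are also the members of complex I just under 5 CPM at the median. Next came Ndufb10 and Ndufs8 at 0.557 and 0.578, and Atp5sl and Ndufa1 at 1.71 and 1.65. The summed ratio was 1.08 (1.07 to 1.10), and it was 0.984 with TMM factors, so its direction rests on the scaling. The median log2 ratio was 0.09 over members and 0.15 over all genes.

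Last, sequence features that the choice by symbol did not use were described from RefSeq (build GRCm38.p6, not the build of the counts). A promoter window of 300 bases, from 250 before to 50 after the gene's start, was found for 69 of the 84 members. Motifs were searched on both strands: GCGCATGCG of NRF1, a factor named for its role in respiratory genes, CCGGAAG of the ETS family, to which GABP belongs, and AAGATGGCG of YY1. The NRF1 motif was in 11.6% of member windows, against 1.95% of the windows of 27025 genes and 4.63% of 7233 other genes with a median of 5 CPM or more. The ETS motif was in 23.2%, against 9.93% and 22.2%, and the YY1 motif in 11.6%, against 1.64% and 4.22%. Among the 60 members with a window and a median of 5 CPM or more, the shares were 13.3% for NRF1, 25% for ETS and 13.3% for YY1. At least 1 was in 27 members and 2 were in 5: Atp5j, Atp5k, Atp5l, Cox6a1 and Uqcr11. These are counts of letters, and no binding was measured. In 7 of 8 members a YY1 match lay 22 to 35 bases after the start on the strand of the gene. Atp5sl has another match at -53 bases, and Atp5j has its only match at -88. Of 452 other windows with this motif, 43.1% had their first match on that strand after the start. This counts windows by their first match, whereas members were counted by gene with any match. The NRF1 motif reads almost the same on both strands, so that both are often matched at 1 place.

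The 120 bases before the start, 5′ to 3′ on the strand of the gene, are given for members on which the comparisons turned and for contrasting cases. Capitals mark the motifs that lie wholly within the stretch. An NRF1 match of Uqcr11, on the other strand, begins 5 bases before the start and runs past the stretch, so it is unmarked. Atp5b (chr10:128083187-128083306, plus strand), Sdhd (chr9:50603850-50603969, minus) and Uqcr11 (chr10:80406822-80406941, minus) had the smallest p in a comparison or came near it. Atp5j (chr16:84834977-84835096, minus, 1 of 2 windows) holds 2 motifs and Atp5k (chr5:108434400-108434519, minus) the NRF1 motif on both strands. Cox6a1 (chr5:115348959-115349078, minus) was expressed in all libraries and Cox8b (chr7:140900447-140900566, minus) in none. The ETS motif starts 46 bases before the start of Sdhd, 66 before Uqcr11, 61 before Atp5j and 16 before Cox6a1. Atp5b, with a median of 147 CPM, and Cox8b, at 0 in all, have none of the 3 in this stretch.
Atp5b: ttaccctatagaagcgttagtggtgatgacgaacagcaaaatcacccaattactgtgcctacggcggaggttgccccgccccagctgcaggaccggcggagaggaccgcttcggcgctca
Sdhd: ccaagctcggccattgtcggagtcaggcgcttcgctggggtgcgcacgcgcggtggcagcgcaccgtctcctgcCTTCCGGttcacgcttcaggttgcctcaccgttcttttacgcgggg
Uqcr11: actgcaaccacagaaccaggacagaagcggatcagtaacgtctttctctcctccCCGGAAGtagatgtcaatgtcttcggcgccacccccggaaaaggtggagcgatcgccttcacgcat
Atp5j: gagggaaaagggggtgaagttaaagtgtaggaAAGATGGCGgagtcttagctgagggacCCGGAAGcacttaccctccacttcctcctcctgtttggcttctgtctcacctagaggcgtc
Atp5k: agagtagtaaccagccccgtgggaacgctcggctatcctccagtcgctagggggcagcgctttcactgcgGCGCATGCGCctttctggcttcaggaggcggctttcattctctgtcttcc
Cox6a1: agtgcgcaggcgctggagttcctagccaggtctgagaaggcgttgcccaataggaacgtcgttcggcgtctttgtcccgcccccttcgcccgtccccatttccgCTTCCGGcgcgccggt
Cox8b: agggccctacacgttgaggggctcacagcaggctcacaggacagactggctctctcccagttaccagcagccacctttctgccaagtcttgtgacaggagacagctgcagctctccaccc

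Most of the genes are short, and their level per kilobase, a measure divided by length, was higher in the short ones. Over 77 members with a median above 0, the exon length of the shortest class of 3 was 371 to 741 bases, and their median level was 24.9 CPM per kb. In the middle class it was 17.5 and in the longest 14.5 CPM per kb. Among members with at least 5 CPM the values were 26.8, 18.1 and 17.0, against 34.8, 16.0 and 9.93 CPM per kb in other genes of the same lengths and that level. A floor in CPM is itself a higher level per kb in a shorter gene. Lengths are unions of protein-coding exons in GENCODE M21, and the annotation used for counting is not given in the sources used here.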

How the data were processed

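Polyadenylated RNA of sorted brain myeloid cells was sequenced. The values deposited are raw counts, given by the authors per gene symbol in 1 table for each library. Reads were aligned with STAR to mm39 (GRCm39), per the submitters' processing notes. The sources used here give neither the annotation nor the strand setting nor the treatment of reads with several matches. All 11 tables held 24411 symbols, and 0 columns were left without a library.

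Members, gene lists, comparisons and alternatives were chosen with earlier results of these data known. Levels are CPM of the library total, unless named otherwise. The 9 libraries of 3 routes and 3 populations were fitted in 1 additive model (R 4.3.3, edgeR 4.0.16, limma 3.58.1, DESeq2 1.42.0) with TMM factors and edgeR's filter on low counts (minimum 10, total 15). This left 13339 genes, 4 residual degrees of freedom and a biological coefficient of variation of 0.842. The quasi-likelihood test was adjusted by Benjamini-Hochberg over all genes at 0.05. The script was tested on simulated data. Logs used a prior count of 2. With 1 library per combination, p-values rest on the spread left after additive effects of route and population. That spread mixes effects particular to a combination with differences between single libraries, which may be technical. CTR µ and ICV CD45.2 PBS were described without a test. Intervals and limits at 95% (exact) or 3 counts cover counting error only. Reads carry no molecular identifiers that are stated.

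Named genes were those past the threshold or, where fewer than 3 passed in a direction, up to 3 with the smallest p and 1 direction in all blocks. To these came isoform families, complex II, catalytic subunits, the 4 most and 4 least variable members, members outside the range in CTR µ, and up to 5 each way in ICV CD45.2 PBS. Ndufs5, Ndufs7, Atp5j2, Uqcrh, the members with gaps or outside the range of 7 libraries and the promoters printed were chosen after their values were seen. The values of 1 named gene are not reported here. Exon lengths and transcripts came from GENCODE M21 (GRCm38) and promoters from RefSeq (GRCm38.p6). Copies were found with blastn 2.17.0, at 95% identity over 100 bases and 80% of the copy. Positions in the authors' build were not used here.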

Additional observations from a re-analysis of the deposited data

How the results depend on the processing

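In each of the 6 comparisons 0 members passed with edgeR under every alternative run: DESeq2's size factors, library totals with and without Rn45s, no filter, 10 CPM in 3 libraries, no block, all 11 libraries, without ICV CD45.1 µ and IV CD45.2 µ, the legacy fit (the last added after seeing the data), and each library left out. With DESeq2 and limma-voom 0 passed too, and DESeq2 called 32 to 277 of the 13339 genes. At so small a share of all genes, 0 calls says little about the members themselves. The members' median kept its sign in all alternatives, except in CD45.1 TAµ set against CD45.1 µ (-0.031) and ITL against ICV (-0.004), both without ICV CD45.1 µ. Leaving out single libraries gave medians of -0.031 (ICV CD45.1 µ out) to 0.384 (IV CD45.1 µ out) for the first of these and -0.004 to 0.399 (ICV CD45.2 µ out) for the second. The other ranges were -0.446 (ICV CD45.1 µ out) to -0.003 (IV CD45.1 µ out) in CD45.2 µ set against CD45.1 µ, and 0.130 (ITL CD45.2 µ out) to 0.556 (ICV CD45.2 µ out) in CD45.1 TAµ against CD45.2 µ. For ICV against IV they were 0.089 (IV CD45.1 TAµ out) to 0.362 (ICV CD45.1 µ out), and for ITL against IV 0.280 (IV CD45.1 TAµ out) to 0.704 (IV CD45.1 µ out). All genes had nearly the members' median in 2 of these fits. They had 0.129 in CD45.1 TAµ against CD45.2 µ with ITL CD45.2 µ out, and 0.107 for ICV against IV with IV CD45.1 TAµ out. With ICV CD45.1 µ and IV CD45.2 µ both out, the 6 medians, in the order of the report, were 0.014, -0.294, 0.418, 0.480, 0.421 and 0.013. With library totals they were 0.054, -0.215, 0.244, 0.077, 0.40 and 0.234. The summed ratio of ICV CD45.2 PBS to ICV CD45.2 µ, 1.08, was 0.984 with TMM factors, 0.982 with DESeq2's size factors and 0.981 without Rn45s, which takes 13.6% and 21.8% of the counts of these libraries. The ratio of the highest to the lowest summed level, 1.46, was 1.72 without Rn45s and 1.49 without the 3 members with most counts. No paired analysis was possible because the labels carry no replicate or animal numbers by which libraries could be paired, and the blocks in the fits are routes or populations. Depth limits members at a few CPM: 3 counts are 0.493 CPM in ITL CD45.2 µ.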
